A study of Mus musculus with 22 samples.

Results

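The genes of the TGF-beta, BMP and activin pathway were examined in CosMx counts from sections of 2 mouse embryos at E10. Members were all genes of the tables whose names start with Bmp, Acvr, Tgfb, Gdf, Inha, Inhb or Smad, plus Eng. This rule gave 28 of the 998 genes, namely 12 ligand genes, 10 receptor genes, 5 Smads and the protease gene Bmp1. Nog, Grem1, Chrd, Id1, Id2, Id3 and Ltbp2, also named by the rule, were not analysed here. CosMx hybridizes probes to RNA in a tissue section and counts single molecules inside each segmented cell outline. The labels gave 13 sections of 1 Knockout embryo, which was Nr4a1-/-Nr4a2-/-, and 9 sections of 1 Wildtype embryo, which was Nr4a1+/+Nr4a2+/+. Both alleles were germline knockouts in mice backcrossed to C57BL/6J, so every cell of the Knockout embryo carried them and no Cre was used. The file names numbered the sections of each embryo 1 or 2 (7 and 6 Knockout, 4 and 5 Wildtype sections), and what this number stands for is not given in the sources used here. Each genotype was 1 embryo, and by the study's methods each slide held sections of 1 genotype, so genotype, embryo and slide cannot be told apart. By its account the sections ran along the aorta-gonads-mesonephros region from front to back, and some were lost or damaged. Whether the sections of the 2 embryos match in level was not tested.

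TGF-beta family ligands are secreted dimers. A dimer brings together type II receptors, which are active kinases, and type I receptors, which they phosphorylate. Type I receptors of the TGF-beta and activin branch then phosphorylate Smad2 and Smad3, whereas those of the BMP branch phosphorylate Smad1 and its close relatives. The phosphorylated Smads enter the nucleus with the shared partner Smad4, and Smad6 is an inhibitory Smad whose transcription BMP signals raise. In vessels, endothelial cells use the type I receptor Acvrl1 with the co-receptor endoglin, which Eng encodes, and mutations of either gene cause hereditary haemorrhagic telangiectasia. TGF-beta ligands act on the mural cells that coat vessels, and BMP ligands from ventral tissue act on the aorta of the early embryo.

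The tables held 37575 cells, and 5 of them were dropped for holding fewer than 10 transcripts or 10 genes. A section held between 169027 and 887896 transcripts, and the median cell of a section held between 87 and 332. Cell names were shared by 6 of 231 pairs of sections, but none of the 3409 shared names had the same counts in both sections, and no cell was removed for this. The targeted genes were not lower in the sections labelled Nr4a1-/-Nr4a2-/-. The scaled rate of Nr4a1 lay between 1.93 and 2.70 transcripts per 10000 (median 2.48) in Knockout sections and between 2.04 and 2.95 (median 2.54) in Wildtype sections. That of Nr4a2 lay between 3.45 and 5.26 (median 4.50) and between 3.06 and 5.65 (median 4.24). Log2 differences were -0.05 ± 0.07 (SE; adjusted p = 0.716) and 0.03 ± 0.09 (adjusted p = 0.860) by the quasi-likelihood test of edgeR, adjusted after Benjamini and Hochberg. Both genes lay within the range of the lymphoid genes that serve as background below (means of 2.27 to 7.70 on this scale), so their expression could not be told from background over all cells. The place of these probes relative to the deleted parts is not given in the sources used here, so the counts do not check the labels, and the direction of each comparison between embryos rests on the labels. A legend of the study counts more wild-type than knockout sections, the reverse of the labels, and more wild-type sections than the labels give. Whether genotype labels were exchanged could not be checked here, and an exchange would turn the sign of every difference between the embryos.

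Counts of 26 lymphoid genes, which mature lymphocytes express and an embryo of this stage should largely lack, served as the background of the assay. Their pooled rates lay between 2.39 and 7.79 per 10000 transcripts, with a median of 4.99. Of the 28 members, 10 lay above the highest lymphoid gene, Ms4a1, as did 279 of the 990 panel genes outside the gate genes (28.2%). These were the ligand genes Tgfb2, Bmp4 and Bmp7, the receptor genes Tgfbr1, Tgfbr2, Bmpr1a, Bmpr2 and Eng, and Smad4 and Smad6. Their pooled rates ran from 8.21 for Tgfbr2 to 17.5 for Smad6. The other 18 members lay within the lymphoid range, down to 3.28 for Inhbb, a subunit gene of activin, so expression in all cells together could not be told from background for them at this depth. Probes of different genes differ in efficiency, so these rates do not rank the genes by expression.

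**Figure D1:**
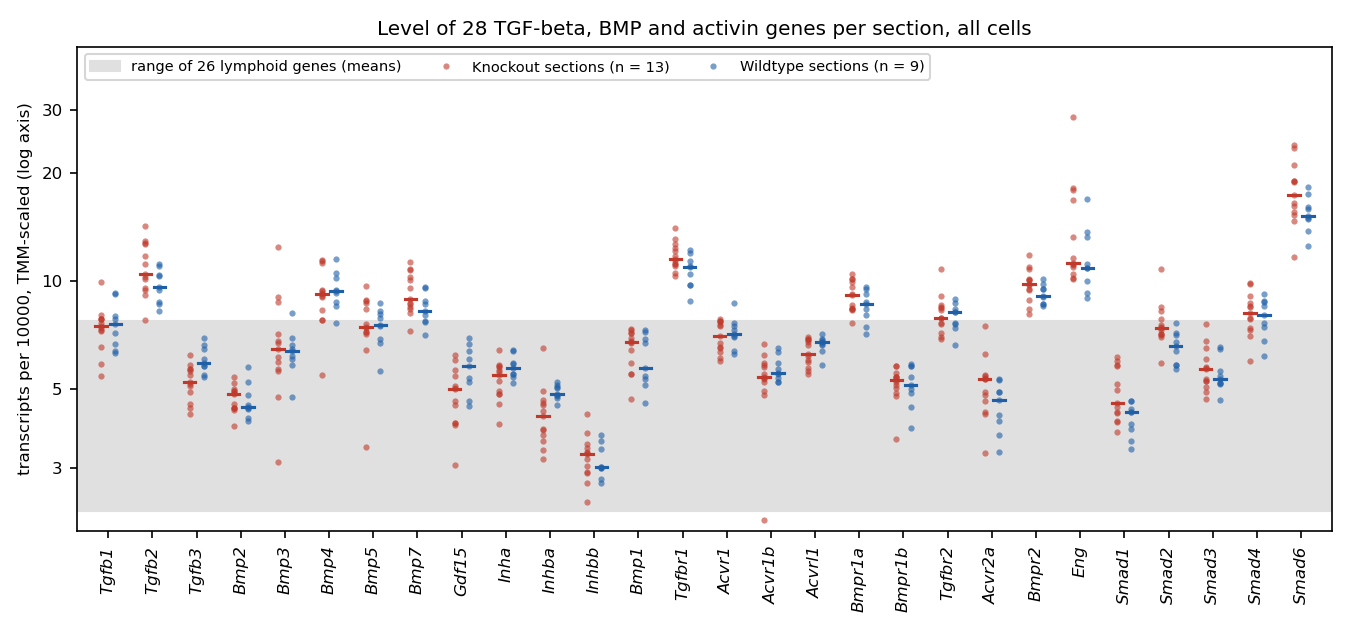
Scaled transcripts per 10000 (log axis) of the 28 members in all cells of each section, with members on the x axis in the order ligands, protease, receptors and Smads, and the range of the means of the 26 lymphoid genes as a grey band. Each point is a section, coloured by genotype, short bars are medians, and Smad6 and Eng sit highest, with Knockout section 5 at 28.8 for Eng.

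The promoters of 4 of the 5 members that were higher in Cdh5-gated cells, Eng, Tgfb1, Tgfbr2 and Smad6, are printed because that comparison held the largest difference of a member. Acvrl1 was not matched. They are the 250 bases before the annotated start, from RefSeq on GRCm38.p6, 5′ to 3′ on the strand of the gene. Promoters were matched for 20 of the 28 members. The promoter of Eng is chr2:32646345-32646594 on the plus strand, that of Tgfb1 is chr7:25686752-25687001 on the plus strand, that of Tgfbr2 is chr9:116175364-116175613 on the minus strand and that of Smad6 is chr9:64022060-64022309 on the minus strand. Capitals mark GGAA on either strand, the core of the site that ETS factors bind.
Eng: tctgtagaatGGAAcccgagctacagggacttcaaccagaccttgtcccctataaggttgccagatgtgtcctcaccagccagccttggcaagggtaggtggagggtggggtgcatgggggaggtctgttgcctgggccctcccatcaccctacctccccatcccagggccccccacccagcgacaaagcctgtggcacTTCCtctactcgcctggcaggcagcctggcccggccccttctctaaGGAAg
Tgfb1: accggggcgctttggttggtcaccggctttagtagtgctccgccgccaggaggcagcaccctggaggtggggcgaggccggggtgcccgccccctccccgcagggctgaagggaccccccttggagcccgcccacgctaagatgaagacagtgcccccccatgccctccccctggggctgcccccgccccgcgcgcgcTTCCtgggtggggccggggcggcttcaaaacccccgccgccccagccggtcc
Tgfbr2: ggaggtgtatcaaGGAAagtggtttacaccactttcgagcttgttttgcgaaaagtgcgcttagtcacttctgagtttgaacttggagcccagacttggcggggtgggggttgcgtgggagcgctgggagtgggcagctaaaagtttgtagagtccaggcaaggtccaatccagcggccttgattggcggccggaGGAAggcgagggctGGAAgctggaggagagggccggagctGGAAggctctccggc
Smad6: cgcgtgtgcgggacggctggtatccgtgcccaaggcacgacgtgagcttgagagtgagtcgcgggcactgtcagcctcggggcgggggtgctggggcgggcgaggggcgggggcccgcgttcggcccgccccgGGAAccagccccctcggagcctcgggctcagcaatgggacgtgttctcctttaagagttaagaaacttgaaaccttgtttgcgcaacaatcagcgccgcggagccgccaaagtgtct
GGAA was present 3 times for Eng, 1 time for Tgfb1, 4 times for Tgfbr2 and 1 time for Smad6. Of 32851 RefSeq promoters of the same length, 93.4% held it, with a mean of 2.91 copies, so its presence does not set these genes apart.

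The first comparison asked whether the pathway genes differed between the embryos over all cells. None of the 28 members passed the test (edgeR's quasi-likelihood test, Benjamini-Hochberg adjusted over 998 genes), whereas 12.5% of all genes did. At an unadjusted p under 0.05 by edgeR there were 5 members, beside 259 of the 998 genes, and DESeq2 called 4 members. With the number in the file name as a block, Tgfb3 (lower), Smad1 and Smad2 (higher in Knockout sections) passed narrowly, with adjusted p of 0.0352, 0.0492 and 0.0492 by edgeR. Among sections numbered 1 alone 0 members passed, and among those numbered 2 alone Gdf15 (lower) and Smad1 (higher) did. The median log2 difference of the members, Knockout over Wildtype, was 0.04, against -0.03 over all genes. All sections of a genotype came from 1 embryo, so this test and those below compare 2 embryos, and its p-values are too small for a comparison of genotypes. A sum over cells also cannot tell fewer cells of a type from less RNA per cell.

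Among the ligands, Tgfb3, a TGF-beta ligand of epithelia and mesenchyme, came nearest to the threshold. Its scaled rate lay between 4.25 and 6.19 (median 5.21) in Knockout sections and between 5.38 and 6.93 (median 5.88) in Wildtype sections, a log2 difference of -0.20 ± 0.07 (adjusted p = 0.0525 by edgeR). The ranges overlapped. The estimate was -0.14 in sections numbered 1 and -0.27 in those numbered 2. Inhba, which encodes the subunit of activin A, lay between 3.19 and 6.49 (median 4.19) in Knockout and between 4.51 and 5.20 (median 4.84) in Wildtype sections, a log2 difference of -0.22 ± 0.08 (adjusted p = 0.0873). Its highest and lowest sections were both of the Knockout embryo. Both genes were within the lymphoid range in all cells.

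Of the Smads, Smad1 of the BMP branch, Smad2 of the TGF-beta branch and the inhibitory Smad6 had nearly equal positive estimates. Smad2 lay between 5.89 and 10.8 (median 7.36) in Knockout and between 5.68 and 7.61 (median 6.58) in Wildtype sections, a log2 difference of 0.21 ± 0.08 (adjusted p = 0.0754). Smad1 lay between 3.78 and 6.13 (median 4.56) and between 3.39 and 4.63 (median 4.30), a log2 difference of 0.23 ± 0.09 (adjusted p = 0.0943). Smad6 lay between 11.6 and 24.0 (median 17.3) and between 12.5 and 18.2 (median 15.2), a log2 difference of 0.21 ± 0.11 (adjusted p = 0.203). For all 3, the mean of the Knockout sections numbered 2 (8.28 for Smad2, 5.45 for Smad1, 20.04 for Smad6) was above that of the Knockout sections numbered 1 (7.04, 4.36 and 16.1), which was nearer to the Wildtype means. Within the sections numbered 1, the log2 differences were 0.10 for Smad2, 0.08 for Smad1 and 0.03 for Smad6, and within those numbered 2 they were 0.35, 0.38 and 0.40.

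No receptor gene passed an unadjusted p of 0.05. Eng lay between 10.1 and 28.8 (median 11.2) in Knockout sections and between 8.95 and 16.9 (median 10.9) in Wildtype sections, a log2 difference of 0.26 ± 0.17. The estimate was 0.61 in sections numbered 1 and -0.11 in those numbered 2. Its highest value was in Knockout section 5, which is numbered 1 and also held the highest value of Bmp3, an atypical BMP that opposes the others, at 12.4. Without this section, Smad1, Smad2 and Tgfb3 passed the test. In a fit scaled by library sizes alone, the median moved to -0.30 over all genes and to -0.23 for the members. There, 17 members were called lower in Knockout sections, so the direction of the members over all cells depends on the scaling. No share of all genes stands beside this count, so it does not set the members apart. Of other pathway genes, the targets Tsc22d1 and Snai1 were higher in Knockout sections by edgeR (log2 differences 0.46 ± 0.10, adjusted p = 0.0011, and 0.35 ± 0.12, adjusted p = 0.0451). The targets Snai2, Junb and Cdkn1a did not pass (log2 differences -0.02, 0.11 and 0.01). Alternative settings were run for members alone, not for these genes. Snai1 was also higher in Twist1-gated cells, which made up 6.15% of Knockout and 2.49% of Wildtype cells and whose part in this was not tested. Of 9 modulators, such as the binding proteins Dcn and Bgn, 0 passed by edgeR, with 3 at an unadjusted p under 0.05 (259 of 998 genes were).

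**Figure D2:**
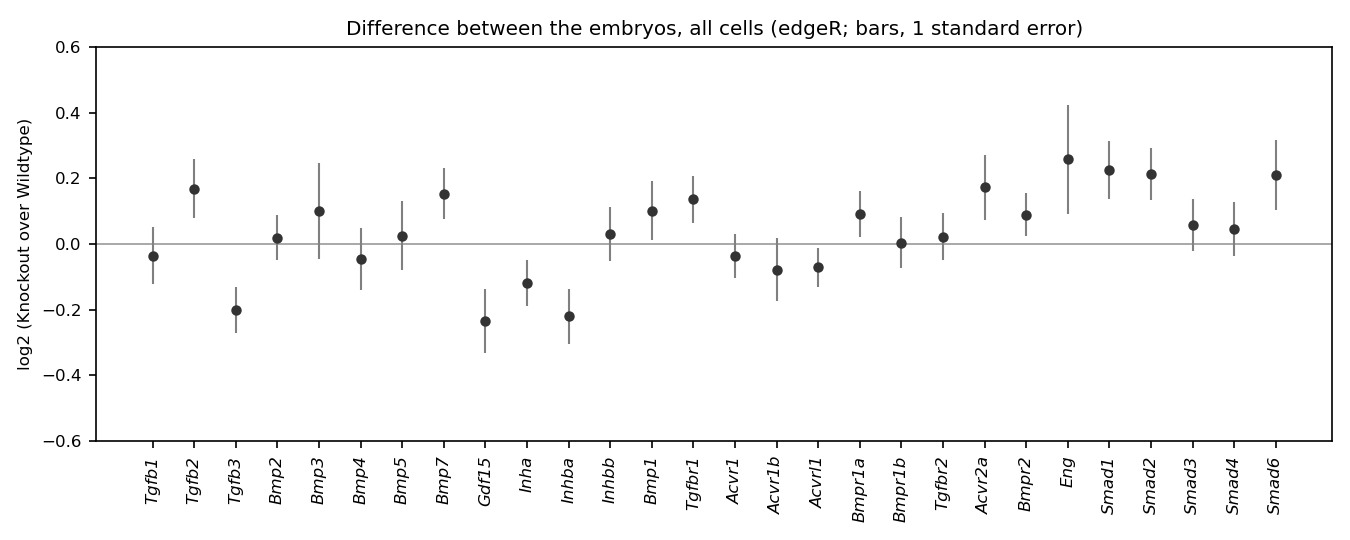
Log2 difference between the embryos (y axis, Knockout over Wildtype) of each member (x axis) over all cells, from edgeR. Points are estimates and bars are 1 standard error, and no member passed the test.

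Cells were next grouped by marker genes that are not members. A cell entered a gate when its marker count was at least 2 and had a Poisson upper tail under 0.01 given the total of the cell, and cells of several gates were left out. There were 824 Cdh5-gated cells, 907 Tagln+Acta2-gated cells, 1712 Twist1-gated cells, 829 Foxc1-gated cells, 2843 hemoglobin-gated cells and 232 Epcam-gated cells, against 29581 ungated cells. Of 10 other endothelial genes, 9 were at least 2-fold higher in Cdh5-gated than in ungated cells, and these cells are called endothelial-like. Of 7 smooth muscle genes, 4 were at least 2-fold higher in Tagln+Acta2-gated cells, which are called smooth-muscle-like, although 2 of 5 mesenchyme genes and 1 of 4 epithelial genes, Krt8, were as well. Twist1-gated cells had 0 of 5 mesenchyme genes at 2-fold and Foxc1-gated cells 2 of 4 sclerotome genes, so both keep the name of their gate. Gated cells were deeper than ungated cells, with a median of 357 transcripts in Cdh5-gated and 167 in ungated cells. Outlines can take in molecules of neighbouring cells, and the part of this in the differences below was not tested.

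In endothelial-like cells, the co-receptor gene Eng, the ligand gene Tgfb1 and the receptor genes Acvrl1 and Tgfbr2 were higher than in the ungated cells of the same sections, with the inhibitory Smad6. The receptor gene Bmpr1a and the ligand genes Bmp5 and Inhba were lower. In all, 5 of 28 members passed the test higher (10.9% of 954 genes did) and 3 lower (5.24% of genes). The median log2 difference of the members was 0.06, against 0.01 over all genes. The test was the quasi-likelihood test of edgeR with the section as a block and Benjamini-Hochberg adjustment over 954 genes, here and in the gates that follow. With library sizes alone, which moved the median over all genes to -0.12, 3 members were called higher and 7 lower, whereas with ungated cells of 200 or more transcripts as the reference all 8 calls were kept.

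Eng, the endoglin gene, had the largest difference of the members. Its scaled rate in Cdh5-gated cells lay between 13.2 and 42.6 (median 26.2) over 21 sections, and in ungated cells between 7.88 and 28.8 (median 10.3). It was above the ungated cells in 20 of 21 sections, with Knockout section 5, whose ungated cells were the highest, as the exception. The log2 difference was 1.17 ± 0.10, or 2.25-fold (adjusted p = 6.7e-24). Estimates in Wildtype and Knockout sections alone were 1.09 and 1.19.

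Tgfb1, a ligand that signals through Tgfbr2 and Tgfbr1, lay between 3.39 and 19.8 (median 13.5) in Cdh5-gated cells and between 5.02 and 10.0 (median 6.95) in ungated cells. The gated cells were higher in 19 of 21 sections, and the log2 difference was 1.04 ± 0.11, or 2.05-fold (adjusted p = 1.9e-16). Acvrl1, the type I receptor that works with endoglin, lay between 3.12 and 17.8 (median 10.9) and between 5.14 and 7.04 (median 6.32), with a log2 difference of 0.76 ± 0.12 (adjusted p = 3.4e-08). It was higher in the gated cells of 16 of 21 sections. Both genes lay within the lymphoid range over all cells, but at pooled rates of 13.3 and 9.87 in Cdh5-gated cells they were above its highest value there, 6.65.

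Tgfbr2, the type II receptor of TGF-beta, lay between 3.40 and 15.7 (median 9.76) in Cdh5-gated cells and between 6.53 and 11.99 (median 7.92) in ungated cells, a log2 difference of 0.36 ± 0.12 (adjusted p = 0.0167). Smad6 lay between 9.67 and 32.8 (median 19.98) and between 11.3 and 24.9 (median 16.2), a log2 difference of 0.32 ± 0.10 (adjusted p = 0.0185). The gated cells were higher in 15 and 17 of 21 sections, and the ranges overlapped widely. Leaving out 1 section ended the call of Tgfbr2 for 6 sections and that of Smad6 for 8, and neither passed with a gate of 2 or more or of 3 or more Cdh5 transcripts.

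Bmpr1a, a type I receptor of BMP ligands, was lower in endothelial-like cells. It lay between 2.19 and 9.66 (median 6.10) in Cdh5-gated and between 7.42 and 11.99 (median 9.42) in ungated cells, with the gated cells lower in 19 of 21 sections and a log2 difference of -0.60 ± 0.12 (adjusted p = 1.8e-05). Bmp5, a BMP ligand, lay between 1.10 and 9.99 (median 5.44) and between 3.71 and 10.8 (median 8.10), a log2 difference of -0.46 ± 0.13 (adjusted p = 0.0063), and was lower in 16 of 21 sections. These were 11 of 12 Knockout and 5 of 9 Wildtype sections, and Bmp5 passed in Knockout but not in Wildtype sections alone. Inhba lay between 0.888 and 6.96 (median 2.78) and between 3.23 and 6.83 (median 4.63), a log2 difference of -0.57 ± 0.17 (adjusted p = 0.0109), and was lower in 18 of 21 sections. Pooled rates of Inhba lay within the lymphoid range in both kinds of cells, and neither Bmp5 nor Inhba passed with the fixed gates, where Bmp5 changed sign at 3 or more transcripts (0.02).

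Of the markers of other cells, all 5 mesenchyme genes and all 4 epithelial genes were lower in Cdh5-gated than in ungated cells, at summed rates of 53.5 against 85.9 and of 28.2 against 41.3 per 10000. The 4 sclerotome genes summed to 23.3 against 33.5, although Foxc2 was 1.18-fold higher. The 7 smooth muscle genes were level in sum (184 against 185, with Cald1 1.49-fold higher), and both erythroid genes were higher (26.3 against 21.2 in sum). The part of these markers was not tested.

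The remaining 20 members did not pass. Among them, Bmpr2, the type II receptor of BMP ligands, had a log2 difference of 0.28 ± 0.11 (adjusted p = 0.0718), and Tgfbr1, the type I receptor of TGF-beta, had -0.28 ± 0.11 (adjusted p = 0.0830). Of the other pathway genes, Bgn, a matrix proteoglycan that binds TGF-beta, and the immediate early gene Junb were higher (log2 differences 0.91 ± 0.11 and 0.71 ± 0.16). They were 1 of 9 modulators and 1 of 5 targets (10.9% of genes were higher), and the estimates of 6 modulators were negative.

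**Figure D3:**
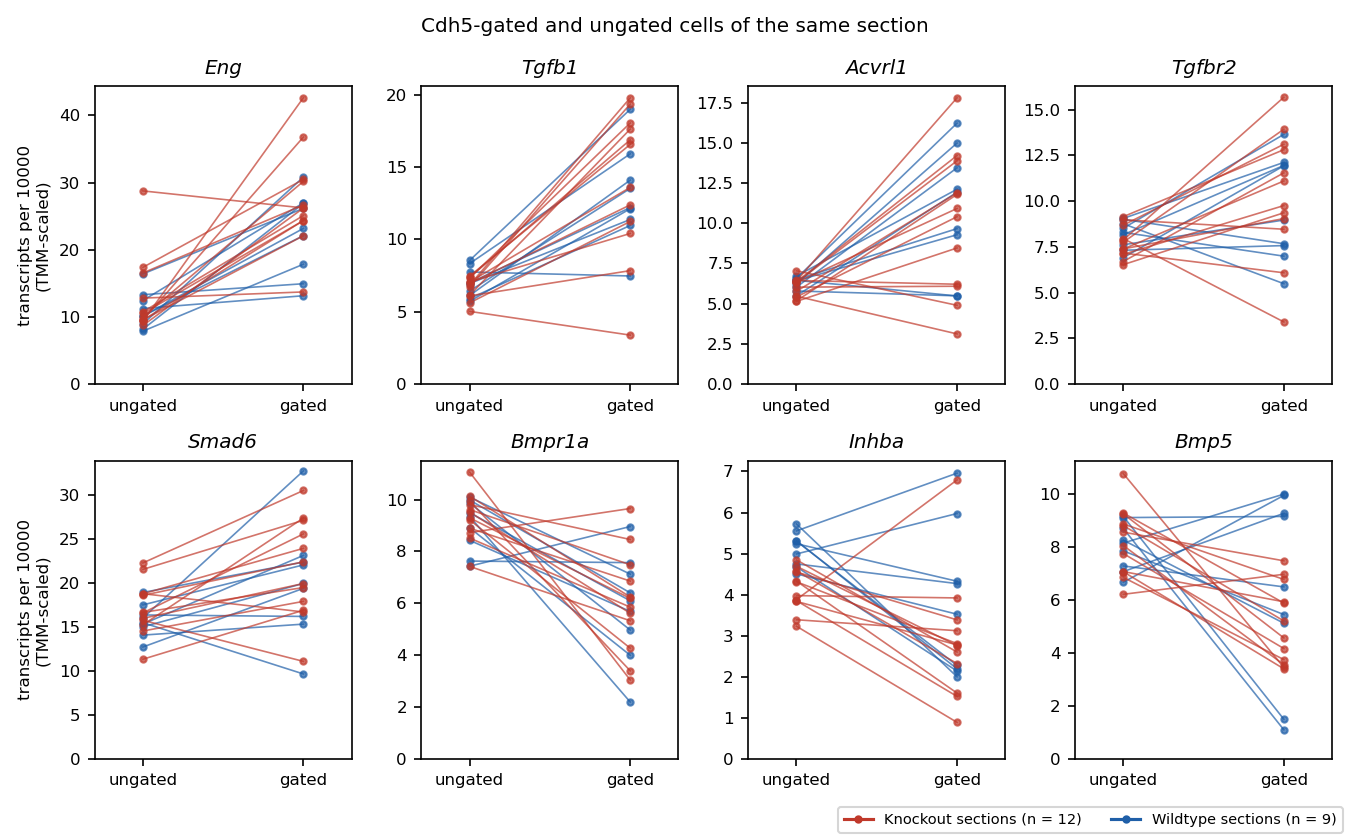
Scaled transcripts per 10000 (y axis) of the 8 members that passed the test, in ungated and Cdh5-gated cells, with a line for each of 21 sections coloured by genotype. Lines for Eng rise in 20 of 21 sections and lines for Bmpr1a fall in 19 of 21.

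In smooth-muscle-like cells, 5 of 28 members were higher than in ungated cells (10.6% of 954 genes were) and 0 were lower. They were the ligand genes Bmp4, Bmp2 and Tgfb2, the type II activin receptor gene Acvr2a and Smad6. The median log2 difference of the members was 0.06, against -0.01 over all genes. With library sizes alone, which moved the median over all genes to -0.20, 2 members were called higher and 5 lower.

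Bmp4, the ventral BMP ligand of the aortic region, lay between 2.49 and 29.9 (median 12.5) in Tagln+Acta2-gated cells and between 5.27 and 12.2 (median 9.18) in ungated cells. It was higher in the gated cells of 12 of 13 Knockout and 5 of 8 Wildtype sections, with a log2 difference of 0.51 ± 0.11 (adjusted p = 0.000123). The estimate was 0.75 in Knockout and 0.09 in Wildtype sections alone, but the difference between the embryos did not pass after adjustment (0.64 ± 0.23, p = 0.00509, adjusted p = 0.607 by edgeR). Smad6 lay between 9.66 and 59.8 (median 24.5) and between 11.3 and 24.9 (median 16.2), with a log2 difference of 0.52 ± 0.10 (adjusted p = 6.1e-06). Its highest value was in Knockout section 4, and it was higher in the gated cells of 11 of 13 Knockout and 3 of 8 Wildtype sections.

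Bmp2, a close relative of Bmp4, lay between 1.55 and 14.7 (median 5.34) in Tagln+Acta2-gated cells and between 3.42 and 5.54 (median 4.68) in ungated cells, a log2 difference of 0.47 ± 0.14 (adjusted p = 0.0070). Acvr2a lay between 1.24 and 14.1 (median 6.42) and between 3.33 and 7.70 (median 5.01), a log2 difference of 0.45 ± 0.13 (adjusted p = 0.0053). Tgfb2 lay between 4.42 and 24.4 (median 13.4) and between 7.80 and 14.7 (median 10.9), a log2 difference of 0.31 ± 0.11 (adjusted p = 0.0467). The gated cells were higher in 13, 14 and 16 of 21 sections, and the gated ranges were the wider on both sides for each gene. For Bmp2 they were higher in 7 of 13 Knockout and 6 of 8 Wildtype sections. With 1 embryo alone, Bmp2 passed in Wildtype sections only, and Acvr2a and Tgfb2 in Knockout sections only. Pooled rates of Bmp2 and Acvr2a lay within the lymphoid range of this gate.

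Leaving out 1 section ended the call of Tgfb2 for 10 sections, and leaving out section 11 ended that of Bmp2. With a gate of 2 or more transcripts Tgfb2 alone of these 5 passed, and Smad6 changed sign (-0.05). Of the other pathway genes, the proteoglycan gene Dcn (log2 difference 0.83 ± 0.12), Bgn, the TGF-beta activating integrin gene Itgav, Snai2 and the cell cycle inhibitor gene Cdkn1a (1.59 ± 0.17) were higher. They were 3 of 9 modulators and 2 of 5 targets (10.6% of genes were higher). Estimates of 4 modulators were negative, and 0 were called lower. The collagen genes of the mesenchyme list moved with these results, Col3a1 by 2.95-fold and Col1a2 by 2.19-fold, so that the list summed to 150 per 10000 in Tagln+Acta2-gated and 85.9 in ungated cells. Of the same list Cdh11 was also higher (1.35-fold), whereas Pdgfra (0.713-fold) and Twist2 (0.915-fold) were not. The 4 epithelial genes summed to 62.2 against 41.3, with Krt8 2.11-fold higher and Cdh1 lowest at 0.650-fold. The part of both lists was not tested.

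**Figure D4:**
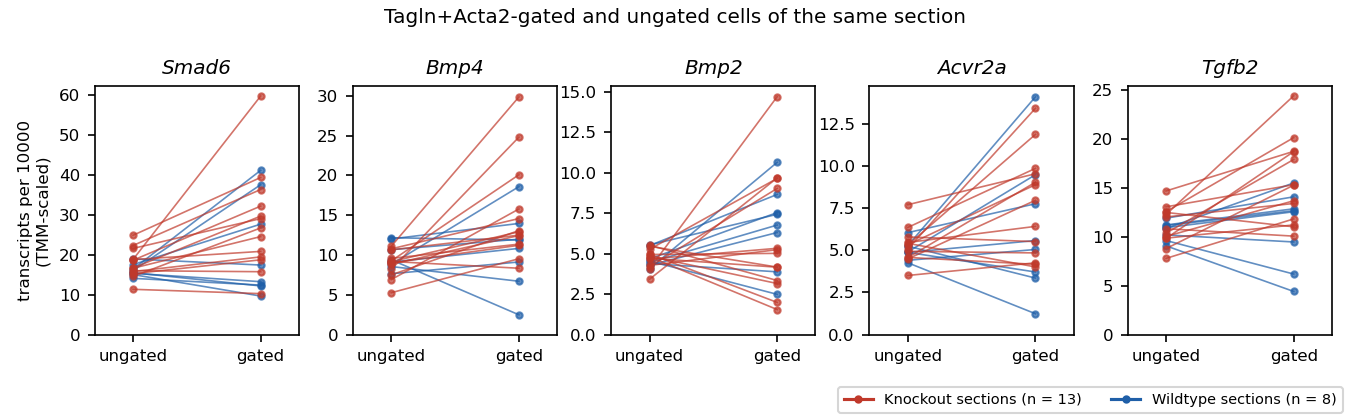
Scaled transcripts per 10000 (y axis) of the 5 members that passed the test, in ungated and Tagln+Acta2-gated cells, with a line for each of 21 sections coloured by genotype. Most lines for Bmp4 rise (17 of 21), and the steepest line for Smad6, to 59.8, is a Knockout section.

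In Twist1-gated cells, 0 of 28 members passed (10.3% of 954 genes did in either direction). By edgeR, 5 members were at an unadjusted p under 0.05, beside 182 of the 954 genes, and DESeq2 called 1 member, Tgfb1 as lower. Tgfb1 lay between 1.92 and 15.9 (median 5.52) in gated and between 5.02 and 10.0 (median 6.95) in ungated cells, a log2 difference of -0.35 ± 0.13 (adjusted p = 0.0559). The gated range was the wider on both sides. Smad1, Smad2, Smad4 and Bmpr1a were the other 4, with log2 differences between 0.21 and 0.29. Of the 5 targets 1 was higher, Snai1, which drives epithelial cells to a mesenchymal state (0.47 ± 0.11). In Foxc1-gated cells, 0 members passed (1.78% of genes did), 0 were at an unadjusted p under 0.05 and DESeq2 called 0.

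In Epcam-gated cells, which came from 9 sections and had 2 of 4 other epithelial genes at 2-fold or more, 1 member was higher (3.14% of genes were). This was Bmp7, a BMP ligand that many embryonic epithelia express. It lay between 0 and 26.3 (median 13.7) in gated and between 7.02 and 11.2 (median 8.73) in ungated cells, with 118 transcripts in the gated cells in all. It was higher in 8 of 9 sections, with a log2 difference of 0.64 ± 0.19 (adjusted p = 0.0272 by edgeR). Leaving out section 3, 9, 14, 18 or 22 ended the call. Without 1 section the log2 difference was 0.38 at the lowest, with adjusted p up to 0.554 by edgeR.

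In hemoglobin-gated cells, 5 of 28 members were higher (29.8% of 954 genes were) and 12 lower (21.2% of genes). The median log2 difference of the members was -0.17, against 0.08 over all genes. The erythropoietin receptor gene Epor was 5.80-fold higher in these cells. However, 7 of 24 lymphoid genes tested were also called higher, the summed rate of the 10 endothelial genes was 104 against 71.9 in ungated cells, and only 2 members lay above the highest lymphoid gene of the gate, so the 5 members called higher are given as values alone. With a gate of 2 or more hemoglobin transcripts 5 of the 17 members passed, namely Tgfb1 (higher) and Tgfbr1, Bmpr1a, Bmpr2 and Smad6 (lower).

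Tgfb1 lay between 5.18 and 16.5 (median 9.78) in hemoglobin-gated and between 5.02 and 10.0 (median 6.95) in ungated cells, a log2 difference of 0.51 ± 0.09 (adjusted p = 4.7e-07). Eng had a log2 difference of 0.36 ± 0.09 and Acvrl1 of 0.31 ± 0.09. Gdf15, a stress-induced cytokine gene, lay between 1.43 and 9.55 (median 6.87) and between 3.41 and 6.93 (median 4.77), a log2 difference of 0.37 ± 0.10 (adjusted p = 0.00137). Inha, the inhibin subunit gene, lay between 3.69 and 10.4 (median 6.23) and between 4.08 and 6.82 (median 5.68), a log2 difference of 0.24 ± 0.10 (adjusted p = 0.0341). Each but Inha was higher in the gated cells of at least 18 of 22 sections, and Inha was in 15. Leaving out 1 section ended the call of Inha for 8 sections (3, 6, 7, 9, 11, 12, 13 and 22), with adjusted p up to 0.210. All 6 macrophage genes were also higher in these cells, by 1.35-fold to 1.54-fold (53.8 against 37.3 in sum). The part of the endothelial and macrophage genes and of the background in these values was not tested.

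The 12 members lower in hemoglobin-gated cells included 5 of the 10 receptor genes. Tgfbr1 lay between 5.01 and 11.4 (median 7.56) in gated and between 8.95 and 16.9 (median 12.02) in ungated cells, a log2 difference of -0.63 ± 0.09 (adjusted p = 8.2e-10). Bmpr1a had -0.59 ± 0.09, Acvr2a -0.64 ± 0.11, Bmpr2 -0.36 ± 0.09 and Bmpr1b, a further type I receptor of BMP ligands, -0.30 ± 0.11. All 5 were lower in at least 17 of 22 sections.

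Of the ligands, Bmp5 (-0.61 ± 0.10), Tgfb2 (-0.54 ± 0.10) and Bmp4 (-0.31 ± 0.10) were lower, as was Bmp1, which encodes a protease that processes procollagen and frees BMP ligands from chordin. Bmp1 lay between 3.02 and 5.83 (median 4.73) in gated and between 4.12 and 8.08 (median 6.60) in ungated cells, a log2 difference of -0.48 ± 0.10 (adjusted p = 3.7e-05). Of the Smads, Smad6 was lower in 20 of 22 sections (-0.52 ± 0.09), and Smad1 and Smad2 were lower with -0.28 each. Leaving out section 2, 14 or 15 ended the call of Smad1 (adjusted p up to 0.0743). The summed rate of the 5 mesenchyme genes (48.5 per 10000 in gated and 85.9 in ungated cells) was also lower, with ratios of gated to ungated cells between 0.423 and 0.659. The 7 smooth muscle genes were divided, with Tpm1, Tpm2 and Cald1 lower (0.547 at most) and the other 4 higher (1.06 to 1.46), and a median ratio of 1.06. The part of these markers was not tested. The split of higher to lower depended on the scaling. With DESeq2, where the median over all genes was 0.34, it was 11 to 6, and with library sizes alone, where the median was 0.23, it was 6 to 8.

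**Figure D5:**
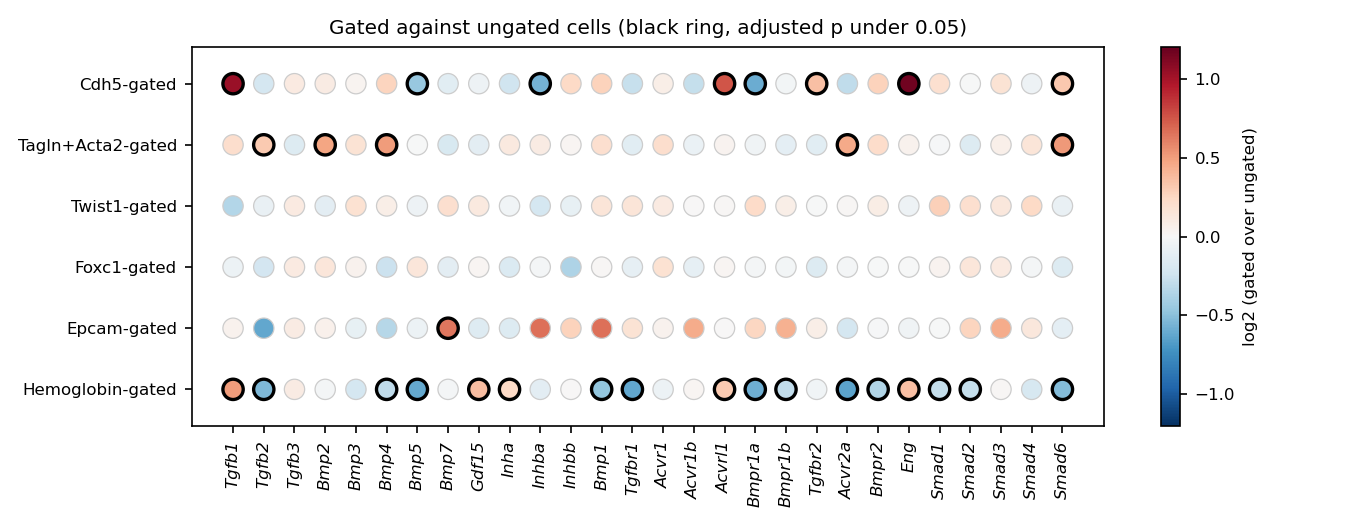
Log2 difference of gated over ungated cells (colour) for each member (x axis) in each gate (y axis), from edgeR with the section as a block. Black rings mark an adjusted p under 0.05, 8 in Cdh5-gated, 5 in Tagln+Acta2-gated, 1 in Epcam-gated, 17 in hemoglobin-gated cells and 0 in Twist1-gated and Foxc1-gated cells.

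Ligand and receptor genes were also summed per section, as rates per 10000 transcripts without further scaling and with no test. Because probes differ in efficiency, the ratio of the sums has no meaning by itself and is given only to set cell groups side by side. The ratio of receptors to ligands had a median of 1.13 over sections in Cdh5-gated cells (0.824 to 1.66) and of 0.987 in ungated cells (0.886 to 1.31). It was 0.955 in Tagln+Acta2-gated, 1.04 in Twist1-gated, 1.07 in Foxc1-gated and 0.943 in hemoglobin-gated cells. All these ranges overlapped. In Cdh5-gated cells the median ratio was 1.22 in Knockout and 1.05 in Wildtype sections. Without Eng, the median ratio was 0.813 in Cdh5-gated and 0.838 in ungated cells, so the higher ratio of Cdh5-gated cells rested on that gene.

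Over all cells, the ligand sum lay between 67.6 and 86.1 (median 73.3) in Knockout and between 84.3 and 100.3 (median 90.8) in Wildtype sections. The receptor sum lay between 67.8 and 92.6 (median 76.7) and between 84.7 and 98.5 (median 87.3). Both were mostly higher in Wildtype sections on this unscaled rate. The sum of the 26 lymphoid genes moved with them, with medians of 118 in Knockout and 144 in Wildtype sections, and its part was not tested.

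Within the gates, the embryos were compared over the members that passed a filter on low counts. No member passed the test among 15 of 28 in Cdh5-gated cells (5.49% of 401 genes did), 17 in Tagln+Acta2-gated cells (1.74% of 403 genes) and 16 in Twist1-gated cells (2.43% of 452 genes). By edgeR, 0 members were at an unadjusted p under 0.05 in each of these 3 gates, and DESeq2 called 0 in each. On simulated counts of Cdh5-gated cells, 12% of genes changed by 0.5 on the log2 scale and 48% of those changed by 1 were called, where genes below the filter counted as not called and 394 of 990 genes passed it. Eng had a log2 difference of 0.17 ± 0.16 in Cdh5-gated cells and Tgfb1 0.03 ± 0.20.

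Of the other pathway genes tested in these 3 gates, Bgn was higher in Knockout than in Wildtype Cdh5-gated cells (log2 difference 0.55 ± 0.17, adjusted p = 0.0434 by edgeR).

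In Foxc1-gated cells, 1 of the 13 members tested, Bmpr1a, was lower in Knockout sections (12.5% of 329 genes were called in either direction). Its rate, scaled within the gate, lay between 8.32 and 15.4 (median 11.5) in Knockout and between 4.19 and 24.2 (median 16.6) in Wildtype sections. The lowest and the highest sections were both of the Wildtype embryo. The log2 difference was -0.66 ± 0.23 (adjusted p = 0.0448 by edgeR), and leaving out any of 19 of the 22 sections ended the call, with adjusted p up to 0.234, and it was kept without section 4, 6 or 21.

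Whether a gate contrast differed between the embryos was tested with a further term per gate. Of 112 tests of members in the Cdh5, Tagln+Acta2, Twist1 and Foxc1 gates, 0 passed (0% of 954 genes did in any of the 4 gates), and 3 were at an unadjusted p under 0.05 by edgeR. These were Bmp4 in Tagln+Acta2-gated cells, given above, and Tgfb1 (-0.56 ± 0.28, p = 0.0439) and Bmpr1a (-0.49 ± 0.22, p = 0.0301) in Foxc1-gated cells, with adjusted p of 0.967 and 0.897. For Eng in Cdh5-gated cells the difference was 0.10 ± 0.19 (p = 0.615).

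Across these comparisons 7 of the 28 members were called in none of the tests as designed, namely Tgfb3, Bmp3, Inhbb, Acvr1, Acvr1b, Smad3 and Smad4. Alternative settings called some of them, such as Tgfb3 over all cells (the number as a block, DESeq2) and Acvr1 as higher in Tagln+Acta2-gated cells (cells of several gates kept). Over all cells, Bmp3 lay between 3.11 and 12.4 (median 6.46) in Knockout and between 4.74 and 8.13 (median 6.36) in Wildtype sections. Inhbb lay between 2.42 and 4.26 (median 3.28) and between 2.72 and 3.70 (median 3.02). The lowest and the highest section of each gene were both of the Knockout embryo. Acvr1, a type I receptor of BMP ligands, lay between 5.97 and 7.80 (median 7.0) over all cells of Knockout sections and between 6.26 and 8.69 (median 7.12) in Wildtype sections. Acvr1b, the type I receptor of activin, lay between 2.14 and 6.67 (median 5.40) and between 5.21 and 6.47 (median 5.52). The ranges overlapped for both, and the lowest value of Acvr1b was in a Knockout section. Smad3 lay between 4.67 and 7.56 (median 5.68) and between 4.66 and 6.55 (median 5.32). Smad4, the shared partner, lay between 5.97 and 9.85 (median 8.15) and between 6.16 and 9.17 (median 8.0).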

How the data were processed

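The authors fixed fresh frozen sections of 10 µm, hybridized a mouse panel with custom probes, and segmented cells and assigned transcripts with AtoMx software. They deposited whole-number transcript counts per gene and cell without normalization, and the limits on cells, region selection and clusters of the study came later. The labels also name a human panel and paraffin embedding, and a legend of the study gives other numbers of sections per genotype. The labels' genotypes were used here.

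Per section, counts of all cells or of a gate were added up, with at least 10 cells per sum, and gate genes were left out of gated sums. Tests used edgeR 4.0.16 (R 4.3.3) with TMM factors, filterByExpr and robust quasi-likelihood fits. The threshold was an adjusted p of 0.05. Gate contrasts shared 1 fit with section as a block. Printed rates are transcripts per 10000 on TMM-scaled library sizes unless called pooled or unscaled. Section totals, given in the report, set the counting error, and the spread between sections beyond it was estimated in the fits. Fits were tested on simulated counts, where 70% of genes changed by 0.3 (log2) were called over all cells, and 7.10% of calls were false. Alternatives were other scalings, DESeq2 1.42.0, limma 3.58.1 (voom) with a block, other filters, cell limits and gates, the numbered sets, their number as a block, each embryo alone and leaving out each section.

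The members and gene lists were chosen with earlier results of these data known. All members are named, with ranges over sections for those the results turn on and estimates or counts for the rest. Exact permutation tests were planned for members called over all cells, and none was called by edgeR as designed, so none was run.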

Additional observations from a re-analysis of the deposited data

Results flagged for a closer look

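Of 59 groups of Wildtype sections tested for an outlying section, 1 was marked, and chance alone marks about 1 in 20. Knockout sections were not tested in this way. Smad6 in hemoglobin-gated cells of the Wildtype sections had 1 high section, at 18.7 transcripts per 10000, where the next was 12.7, the median 11.6 and the lowest 7.90 (n = 9). The gap was 0.551 of the whole range.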

How the results depend on the processing

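Of 379 counts of called members under an alternative, 308 stayed within 1.5 times the count reported, and of 993 values of single members, 846 kept direction and call, 144 lost the call and 3 changed sign. Over all cells, with 0 members called, 17 were called with library sizes alone, where the median over all genes was -0.30. There were 4 with DESeq2, 2 with sections numbered 2 alone and 3 with the file number as a replicate block. Without 1 section there were 0 to 3 (Tgfb3 without section 2, 3, 7, 17 or 19, Inhba without section 13, and Smad1, Smad2 and Tgfb3 without section 5). The single call of Bmpr1a in Foxc1-gated cells between the embryos became 2 calls with library sizes alone and 0 with RLE factors, DESeq2, no filter on low counts, counts summed per numbered set, either numbered set alone, a gate of 2 or more or of 3 or more transcripts, or cells of several gates kept, and 0 to 1 without 1 section. For Cdh5-gated against ungated cells, 8 calls became 4 with either fixed gate, 4 with Wildtype sections alone and 6 to 9 without 1 section, and Bmp5 changed sign to 0.018 with a gate of 3 or more. For Tagln+Acta2-gated cells, 5 became 1 with a gate of 2 or more, 3 with 3 or more, 1 with Wildtype sections alone and 3 to 5 without 1 section, and Smad6 changed sign to -0.046 with 2 or more. For Twist1-gated cells, 0 became 2 with library sizes alone, 1 with no filter, 1 with DESeq2, 1 with ungated cells of 200 or more transcripts as the reference and 0 to 1 without 1 section. For Epcam-gated cells, 1 became 0 with a gate of 2 or more, 0 with library sizes alone, 2 with DESeq2, 0 with Wildtype sections alone, 2 with Knockout sections alone and 0 to 3 without 1 section. For hemoglobin-gated cells, 17 became 5 with a gate of 2 or more, 10 with 3 or more and 16 to 19 without 1 section, and Smad2 changed sign to 0.0062 with 2 or more. Foxc1-gated against ungated cells, the difference between the embryos in the gate contrasts and the embryo comparisons in the other 3 gates stayed at 0 without any 1 section. The causes were not tested. The reference of 200 or more transcripts and the replicate block were chosen after seeing the data.

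Numbers 1 and 2 of the file names occur in both genotypes, but no source says what they mark. The deviations of same-numbered sections from their genotype correlated at -0.037 across 998 genes. This value rests on 1 difference between numbers per embryo, so it cannot tell what the number marks. With it as a replicate block, Bmpr1a in Foxc1-gated cells was called (-0.67, adjusted p = 0.0425 by edgeR) and the counts in the other 3 gates stayed at 0. In simulated Cdh5-gated cells 48% of genes changed by 1 (log2) between the embryos were called, and the sections of an embryo do not measure the spread between embryos.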
